A study of Mus musculus with 6 samples.

Results

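Matrix metalloproteinases (Mmp genes) encode zinc enzymes that cut collagen and other matrix proteins, and tissue inhibitors of metalloproteinases (Timp genes) encode secreted proteins that block them. The genes described here are 6 Mmp genes outside the gene cluster on chromosome 9 and the 4 Timp genes, taken by name from a table of 22162 mouse genes. All 10 names were found. They are the gelatinases Mmp2 and Mmp9, the membrane-type enzymes Mmp14 and Mmp16, the secreted enzymes Mmp11 and Mmp19, and the inhibitors Timp1, Timp2, Timp3 and Timp4. The cells were mouse skin fibroblasts (MSFs) of the FVB/N strain, isolated from dorsal skin and grown at 3% oxygen and 5% carbon dioxide with 10% serum. The comparison asks whether MSFs made senescent turn up matrix remodelling enzymes. Poly(A) RNA of 3 samples treated with 10 µM tamoxifen (TAM, labelled senescent) and of 3 treated with the ethanol vehicle (EtOH, labelled non-senescent) was sequenced.

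Per the study's methods, the MSF line came from the skin of 1 female FASST mouse, and both groups carry the same alleles. These are a TAM-inducible Cre recombinase driven by the pro-alpha 2(I) collagen promoter and a Cre-activated allele of the cell cycle inhibitor p27Kip1 with GFP at ROSA26. Cells in which that collagen promoter is silent would not recombine. The study reported GFP activation, growth arrest and more cells with senescence staining in MSFs after TAM. In MSF lines that also carried hairpins, it reported that only part of the TAM-treated cells stained as senescent. No cells without the p27Kip1 allele were given TAM in these samples, so TAM itself and senescence cannot be told apart. The labels give no age and do not say whether the 3 replicates were separate cultures of that line, so p-values measure the spread between these samples, which may be technical.

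Most Mmp enzymes are made as inactive precursors and are held in check by Timp proteins, which bind the active site in a complex of equal parts. Timp2 also takes part in the activation of the Mmp2 precursor by Mmp14 at the cell surface, and Timp3, unlike the other inhibitors, is bound to the matrix. In skin these genes are known for matrix turnover during wound repair, and several secreted Mmp enzymes are known as part of the secretions of senescent fibroblasts.

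Values are the authors' normalized counts, whose sum per library ran from 14952370 to 17314950, and 16.2 normalized counts correspond to 1 c.p.m., the usual unit of counts scaled to library size. Cdkn1b, the gene of p27Kip1, lay between 1427 and 3074 normalized counts in the EtOH libraries and between 1520 and 1699 in the TAM libraries (log2 fold change -0.32, limma adjusted p = 0.677). Cdkn1b was thus not higher in the libraries labelled senescent. How reads of the Cre-activated copy were counted is not given in the sources used here. All 10 fibroblast markers passed the filter on low values. Their summed level was 1538254 to 1684812 normalized counts in EtOH and 700510 to 1129878 in TAM. Of the 10, 5 were lower and 1, Thy1, was higher in every TAM library than in every EtOH library (11.4% and 9.19% of all genes tested). None was called by limma without or with the replicate number as a block, against 0.244% and 1.62% of all genes. Before adjustment 1 was higher and 2 were lower at p under 0.05 without the block, against 13.4% of all genes in either direction. In bulk samples fewer cells of a type and less RNA per cell cannot be told apart.

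The members whose levels differed most were 1 inhibitor and 1 membrane-type enzyme. Timp1 was higher in TAM in each of the 3 replicate pairs, by 2.69 to 5.15-fold, and Mmp16 was higher in every TAM library than in every EtOH library, by 6.12-fold between the group means. Mmp2, Mmp14, Mmp19 and Timp2 had fitted log2 fold changes between -0.23 and 0.14. Mmp11 and Timp3 had negative fitted differences that varied widely between libraries. limma tested 9 of the 10 members, all but Timp4, and called 0 of them at an adjusted p under 0.05, a threshold that 0.244% of the 11877 genes tested passed. With the replicate block it called 1 member, Timp1, against 1.62% of all genes. At an unadjusted p under 0.05 the members were Timp1 and Mmp16, 2 of 9, against 13.4% of all genes. The median log2 fold change of the 9 was -0.09, against -0.03 over all genes tested.

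**Figure D1:**
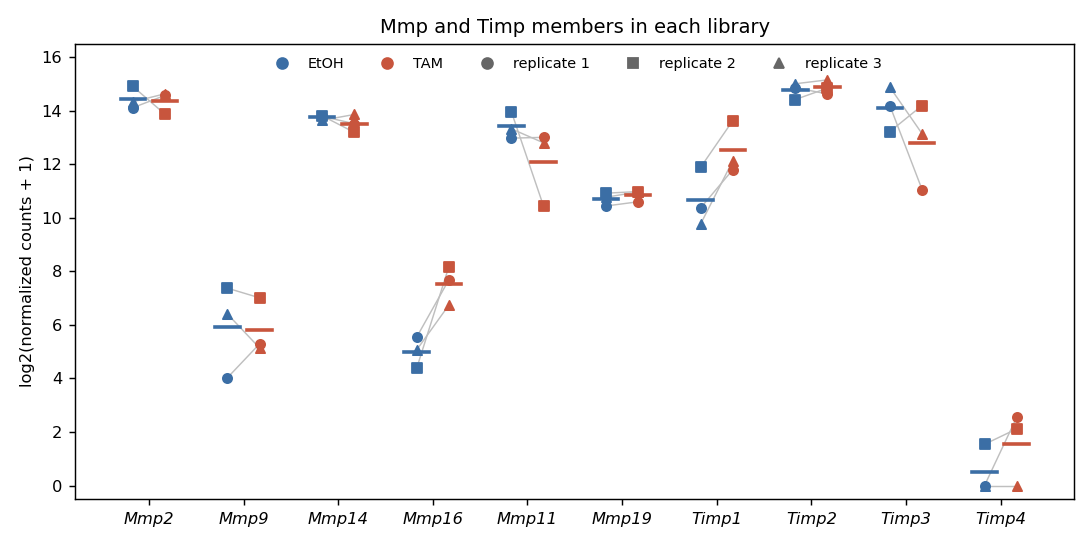
Level of each member in each library as log2(normalized counts + 1), EtOH on the left and TAM on the right of each gene, with symbols for replicates 1 to 3, grey lines joining the same replicate number and bars at the group means of the log2 values. Mmp16 is the only member whose 3 TAM points all lie above its 3 EtOH points, and each of the 3 Timp1 lines rises.

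The sequences before the start of 4 members are shown because Timp1, Timp3 and Mmp11 have the largest fitted differences among the members in the promoter table and Timp2 is the most abundant inhibitor. They are the 250 bases upstream of the RefSeq start in GRCm38.p6, the build of the promoter table, written 5′ to 3′ on the gene's own strand. Capitals mark the letters GGGCGG (a GC box) and GGAAGT (a letter pattern of ETS factors) on either strand, so CCGCCC is a GC box read on the other strand. The windows are chrX:20869916-20870165 on the plus strand for Timp1, chr10:86300162-86300411 on the plus strand for Timp3, chr11:118355412-118355661 on the minus strand for Timp2 and chr10:75932503-75932752 on the minus strand for Mmp11.
Timp1: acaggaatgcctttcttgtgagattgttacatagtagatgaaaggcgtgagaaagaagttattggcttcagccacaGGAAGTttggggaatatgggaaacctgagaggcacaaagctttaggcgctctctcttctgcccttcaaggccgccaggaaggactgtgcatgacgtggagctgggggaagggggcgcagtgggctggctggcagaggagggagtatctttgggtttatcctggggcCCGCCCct
Timp3: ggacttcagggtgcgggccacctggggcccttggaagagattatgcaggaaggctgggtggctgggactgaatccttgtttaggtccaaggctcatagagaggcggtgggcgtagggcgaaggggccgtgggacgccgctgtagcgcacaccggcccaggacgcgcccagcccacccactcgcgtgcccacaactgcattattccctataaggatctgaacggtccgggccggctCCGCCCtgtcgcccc
Timp2: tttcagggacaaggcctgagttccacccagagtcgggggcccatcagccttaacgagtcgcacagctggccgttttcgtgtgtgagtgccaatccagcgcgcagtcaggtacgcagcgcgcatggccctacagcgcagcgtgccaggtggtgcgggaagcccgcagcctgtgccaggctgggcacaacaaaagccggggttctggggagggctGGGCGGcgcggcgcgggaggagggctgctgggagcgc
Mmp11: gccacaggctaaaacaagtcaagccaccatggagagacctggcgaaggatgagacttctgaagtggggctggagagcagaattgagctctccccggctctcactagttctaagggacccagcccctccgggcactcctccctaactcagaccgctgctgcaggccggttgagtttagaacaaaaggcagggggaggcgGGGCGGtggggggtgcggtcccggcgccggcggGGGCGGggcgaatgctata
Promoter windows of 300 bases, from 250 before to 50 after the start, were found for 6 of the 10 members, Mmp11, Mmp14 and the 4 Timp genes. A GC box lay in the windows of 5 of the 6, all but Timp4, and in 35.7% of all 32851 promoters of the table. GGAAGT lay in those of Timp1 and Timp4 and in 23.8% of all promoters. The AP-1 letters TGANTCA, with N for any base, were in none of the 6 and in 7.81% of all promoters. A close variant, TGAGTAA, chosen after the sequences were seen, lay in Timp1 alone of the 6 and in 2.68% of all promoters. It stands 27 to 33 bases after the Timp1 start, beside a GGAAG, in the stretch chrX:20870189-20870215 on the plus strand, where both are in capitals.
Timp1 after the start: ggaTGAGTAAtgcgtccaGGAAGcctg
These matches describe letters in a window and are not evidence of binding. The shorter GGAAG, also chosen after the sequences were seen, is in 71.4% of all promoters and in 5 of the 6 members.

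Among the inhibitors, Timp1 (ENSMUSG00000001131, mm9 chrX:20447292-20451861, plus strand), a secreted inhibitor that is also known as a growth factor-like protein, stood at 1328, 3801 and 874 normalized counts in EtOH replicates 1, 2 and 3. In TAM replicates 1, 2 and 3 it stood at 3571, 12745 and 4506. The groups overlapped, because EtOH replicate 2 exceeded TAM replicate 1, and replicate 2 was the highest library of both groups. Within replicate numbers the TAM library was 2.69, 3.35 and 5.15-fold above its EtOH partner. The log2 fold change was 1.85 with a standard error (SE) of 0.65 (95% interval 0.32 to 3.37, limma adjusted p = 0.291). With the replicate block the SE was 0.23 (95% interval 1.26 to 2.43, adjusted p = 0.0384), and Timp1 passed the threshold. Left to 2 pairs, the blocked fit gave 2.05 without pair 1 (adjusted p = 0.0395), 1.90 without pair 2 (adjusted p = 0.0155) and 1.59 without pair 3 (adjusted p = 0.138), so the call rests on pair 3. What sets replicate 2 apart was not tested.

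Timp1 lies inside Syn1, a synapsin gene on the opposite strand, and the 2 genes share 0 exon bases in the mm9 annotation. Syn1 stood at 45.1, 79.2 and 27.3 normalized counts in EtOH and at 131, 205 and 106 in TAM, without overlap. Its log2 fold change was 1.60 (SE 0.44, limma adjusted p = 0.212, or 0.0581 under the replicate block). Timp1 was 27.2 to 62.1 times as high as Syn1 in the 6 libraries. Timp1 and Syn1 were thus both higher in each TAM library than in the EtOH library of its number, while their ratio was not constant.

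Timp2 (ENSMUSG00000017466, mm9 chr11:118162383-118217054, minus strand), the partner of Mmp14 and of the Mmp2 precursor, was the most abundant inhibitor per exon length in 5 of the 6 libraries. It stood at 29906, 22001 and 33076 normalized counts in EtOH and at 25378, 29526 and 36582 in TAM. The groups overlapped over most of their range. The fitted log2 fold change was 0.11 (SE 0.28, 95% interval -0.54 to 0.76, limma adjusted p = 0.899), so a difference of the size fitted for Timp1 lay outside the interval of Timp2.

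Timp3 (ENSMUSG00000020044, mm9 chr10:85763117-85812251, plus strand), the matrix-bound inhibitor, had the largest standard error among the abundant members. It stood at 18738, 9589 and 30229 normalized counts in EtOH and at 2133, 18833 and 9062 in TAM. TAM replicates 1 and 3 lay below all 3 EtOH libraries, while TAM replicate 2 exceeded 2 of them. The log2 fold change was -1.30 (SE 0.80, 95% interval -3.18 to 0.58, limma adjusted p = 0.546), and the pairs differed by -3.13, 0.97 and -1.74 on the log2 scale. Without TAM replicate 1 the fitted value was -0.43, and without TAM replicate 2 it was -1.999 (adjusted p = 0.829 and 0.335). The last exon of Timp3 overlaps exon sequence of Syn3, a synapsin gene on the opposite strand, over 1733 bases (mm9 chr10:85810519-85812251), which are 21.3% of the Timp3 exon bases. The ratio of Timp3 to Syn3 lay between 2.79 and 2.98 in all 6 libraries, while Timp3 itself spanned 14.2-fold. The strand setting of the counting is not given in the sources used here, so reads of Timp3 and Syn3 cannot be told apart in the shared stretch and the Timp3 values are uncertain to that extent.

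Timp4 (ENSMUSG00000030317, mm9 chr6:115195634-115201867, minus strand), an inhibitor known mainly from heart and muscle, was at or near the floor. It was listed at 0, 1.91 and 0 normalized counts in EtOH and at 4.87, 3.34 and 0 in TAM. No library reached 1 c.p.m., so Timp4 was not tested in the main fit. With no filter on low values its log2 fold change was 1.04 (SE 0.75, limma adjusted p = 0.620), and a difference was not resolved at these low values.

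Of the gelatinases, Mmp2 (ENSMUSG00000031740, mm9 chr8:95351227-95377316, plus strand), the gelatinase that fibroblasts make constitutively, stood at 17799, 30887 and 20746 normalized counts in EtOH. In TAM it stood at 24456, 15010.15 and 25513. The groups overlapped, with the highest library in EtOH and the lowest in TAM, both of them replicate 2. The log2 fold change was -0.09 (SE 0.32, 95% interval -0.86 to 0.67, limma adjusted p = 0.931). Its sign turned with the scaling, to 0.02 with library size only and 0.09 with quantile normalization, and to 0.15 without TAM replicate 2, so no direction is given for Mmp2.

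Mmp9 (ENSMUSG00000017737, mm9 chr2:164766280-164781350, plus strand), the gelatinase of leukocytes and of activated cells, was low. It stood at 15.3, 165 and 84.0 normalized counts in EtOH and at 38.3, 128 and 34.2 in TAM. Replicate 2 was the highest library of both groups and the groups overlapped. Mmp9 had a log2 fold change of -0.12 with an SE of 0.90, and the 95% interval of -2.25 to 2.00 holds differences of 4-fold in either direction (limma adjusted p = 0.972). Leaving out single libraries moved the fitted value from -1.08 to 0.60. Of the 8 macrophage markers in the table, 4 passed the filter and none was called by limma, against 0.244% of all genes tested. At an unadjusted p under 0.05, 2 were higher, against 13.4% of all genes in either direction. Emr1 was at 0 in all 6 libraries, Ptprc was at most 5.01 normalized counts, and the summed markers ran from 205 to 527 in EtOH and from 373 to 561 in TAM. Lyz2 stood at 35.3 to 62.9 in EtOH and 103 to 159 in TAM (log2 fold change 1.48, adjusted p = 0.141) and Csf1r at 73.4 to 75.7 and 90.6 to 226 (0.82, adjusted p = 0.388), both without overlap. Of all genes tested, 9.19% were higher in TAM without overlap. Cd14 stood at 27.1 to 65.8 in EtOH and 65.4 to 96.1 in TAM (1.08, adjusted p = 0.320). Cd68, the other marker tested, went the other way, at 52.1 to 352 in EtOH and 49.6 to 116 in TAM (-0.59, adjusted p = 0.758), with overlap. The part of these markers in the Mmp9 values was not tested. The 6 neutrophil and mast cell markers summed to at most 9.62 normalized counts in any library, and S100a9 was at 0 in all 6.

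The membrane-type enzyme Mmp14 (ENSMUSG00000000957, mm9 chr14:55050441-55060095, plus strand), the cell surface collagenase that activates Mmp2, stood at 14218, 14440 and 12848 normalized counts in EtOH. In TAM it stood at 11754, 9384 and 14923. TAM replicates 1 and 2 lay below the EtOH libraries and TAM replicate 3 above them. Mmp14 had a log2 fold change of -0.23 (SE 0.23, 95% interval -0.77 to 0.32, limma adjusted p = 0.720).

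Mmp16 (ENSMUSG00000028226, mm9 chr4:17780040-18046292, plus strand), a second membrane-anchored activator of Mmp2, stood at 45.8, 19.96 and 32.6 normalized counts in EtOH. In TAM it stood at 206, 290 and 106. The lowest TAM library lay above the highest EtOH library, so the groups did not overlap. Of the 9 members tested Mmp16 alone was higher in this way, against 9.19% of all genes tested, and none was lower in this way, against 11.4%. The log2 fold change was 2.54 (SE 0.46, 95% interval 1.45 to 3.63, limma unadjusted p = 0.00085), and it missed the threshold after adjustment without the replicate block (adjusted p = 0.103) and with it (adjusted p = 0.0809). The exact two-sided permutation test gave p = 0.1, the smallest that 3 against 3 libraries allow. Mmp16 passed the threshold with library weights (adjusted p = 0.0341) and in the blocked fit without pair 2 (adjusted p = 0.0165). All 3 EtOH libraries were above the minimum of 1 c.p.m., yet they lay close to it, and the counting error of these low values is not known.

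**Figure D2:**
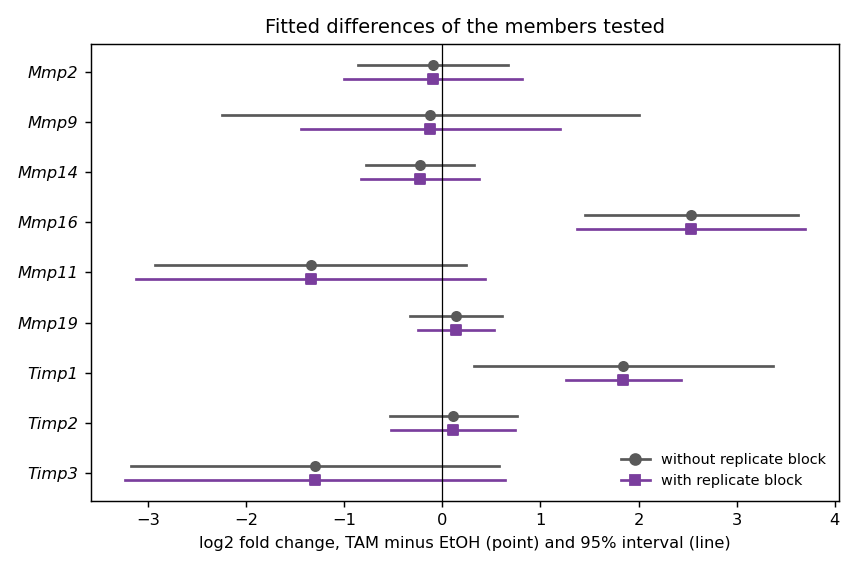
Log2 fold change, TAM minus EtOH, of the 9 members tested, with the 95% interval of limma without the replicate block (circles) and with it (squares). The block narrows the interval of Timp1 from 0.32 to 3.37 down to 1.26 to 2.43, and the intervals of Timp1 and Mmp16 are the ones that leave out 0.

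Of the other secreted enzymes, Mmp11 (ENSMUSG00000000901, mm9 chr10:75385967-75400678, minus strand), known as stromelysin 3 and expressed by stromal fibroblasts around tumours, stood at 8085, 16035 and 10289 normalized counts in EtOH. In TAM it stood at 8257, 1387 and 7161. TAM replicate 2 was far below the other 5 libraries, and its EtOH partner was the highest of all 6. The log2 fold change was -1.34 (SE 0.67, 95% interval -2.93 to 0.24, limma adjusted p = 0.449), and the pairs differed by 0.03, -3.53 and -0.52. Without TAM replicate 2 the fitted value was -0.52, so that library decides most of the difference. Gm867, on the same strand, shares 73 exon bases with Mmp11, 2.76% of those of Mmp11.

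Mmp19 (ENSMUSG00000025355, mm9 chr10:128228009-128237880, plus strand), a secreted enzyme of basement membrane and matrix turnover, varied least. It stood at 1394, 1942 and 1749 normalized counts in EtOH and at 1555, 2027 and 2008 in TAM. Each TAM library exceeded its EtOH partner, by 0.16, 0.06 and 0.20 on the log2 scale, and the groups overlapped. Mmp19 had a log2 fold change of 0.14 (SE 0.20, 95% interval -0.33 to 0.61, limma adjusted p = 0.809). Its last exon shares 789 bases, 23.1% of its exon bases, with 1110012D08Rik on the opposite strand, so part of its reads are uncertain.

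Levels can be compared between genes only per length, and are given here as normalized counts per kb of exon (mean ± SD, n = 3). In EtOH the order was Mmp2 at 7618 ± 2260, Timp2 at 7271 ± 1464, Mmp14 at 5327 ± 332, Mmp11 at 4336 ± 1552, Timp3 at 2397 ± 1269.9 and Timp1 at 2254 ± 1774. Below these came Mmp19 at 497 ± 81.6, Mmp9 at 24.9 ± 21.2, Mmp16 at 3.78 ± 1.49 and Timp4 at 0.45. The neighbours in this order whose libraries did not overlap were Timp2 over Mmp14, Timp1 over Mmp19, Mmp19 over Mmp9 and Mmp16 over Timp4. In TAM the order was Timp2 at 7827 ± 1454, Timp1 at 7816 ± 5685, Mmp2 at 7129.6 ± 1904, Mmp14 at 4628 ± 1070.04, Mmp11 at 2118 ± 1395 and Timp3 at 1229 ± 1030.2. Below these came Mmp19 at 546 ± 78.3, Mmp16 at 23.1 ± 10.6, Mmp9 at 18.9 ± 15.01 and Timp4 at 1.93. Here the neighbours without overlap were Mmp14 over Mmp11, Mmp19 over Mmp16 and Mmp9 over Timp4. In TAM replicate 2 Timp1 stood at 14353, above Timp2 at 7579. In TAM replicates 1 and 3 it stood at 4022 and 5074, below Timp2, Mmp2 and Mmp14. Mmp9 lay above Mmp16 in TAM replicate 2 (36.2 and 33.4) and below it in EtOH replicate 1 (4.33 and 5.29). By group means Timp1 moved from rank 6 to rank 2, a rank it held in no single TAM library. Mmp9 and Mmp16 changed places by group means, and both moves also held with the longest transcript as gene length. With that length Timp2 (7637 ± 1538) ranked over Mmp2 (7618 ± 2260) in EtOH, and the level of Timp3 was 4134 ± 2190.2 in EtOH and 2120 ± 1777 in TAM and that of Mmp16 6.54 ± 2.58 and 40.0 ± 18.3. The authors list Mmp11 at a locus of 772 bases (mm9 chr10:75385967-75386738), while the length used here was 2645 exon bases. Their locus of Mmp9 (mm9 chr2:164766280-164774394) is also shorter than the annotated gene. Whether reads were counted over these loci only is not given in the sources used here. The levels and ranks of Mmp11 and Mmp9 per kb are uncertain to that extent.

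The make-up of the summed inhibitors per kb differed between the groups of libraries, and is given as a description without a test. Timp1 made up 13.03%, 38.5% and 7.47% of the Timp sum in EtOH replicates 1, 2 and 3, and 37.2%, 59.2% and 32.6% in TAM, higher within each replicate number but overlapping between groups. Timp3 made up 20.1%, 10.6% and 28.1% in EtOH and 2.43%, 9.54% and 7.14% in TAM, lower in each TAM library than in any EtOH library, with the limit from Syn3 given above. Shares of a sum depend on each other, so a share can fall where its gene does not. In TAM replicate 2 Timp3 itself stood at 18833 normalized counts, above 2 of the EtOH libraries, and Timp1 at 12745. The ratio of Timp1 to Timp3 was 0.65, 3.64 and 0.27 in EtOH and 15.4, 6.21 and 4.56 in TAM. With the longest transcript as gene length it was 0.379, 2.12 and 0.155 in EtOH and 8.95, 3.62 and 2.66 in TAM. Every TAM library lay above every EtOH library, and the choice of length scales all libraries alike and cannot change that order. This ratio was not planned and pairs the inhibitors with the most positive and the most negative fitted difference, so a separation is favoured by the choice. Timp2 made up 66.9%, 50.8% and 64.4% in EtOH and 60.3%, 31.3% and 60.3% in TAM. The Timp sum itself was 11922 ± 1110.1 normalized counts per kb in EtOH and 16875 ± 6816 in TAM (SD, n = 3), and TAM replicate 2, at 24246, was the highest library.

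Among the 6 enzymes, Mmp2 made up 39.6%, 45.4% and 42.1% of the Mmp sum per kb in EtOH and 49.7%, 50.7% and 48.1% in TAM, without overlap, although its level did not separate the groups. Mmp11 went the other way, with 20.6%, 27.1% and 24.0% in EtOH and 19.3%, 5.38% and 15.5% in TAM, also without overlap. These shares depend on each other too. In TAM replicate 2, where Mmp11 was lowest, the Mmp2 share was highest although Mmp2 itself was lowest, at 15010.15 normalized counts. Mmp14 made up 24.8% to 37.1% in the 6 libraries, and Mmp16 at most 0.343%. The Mmp sum was 17808 ± 4045 normalized counts per kb in EtOH and 14464 ± 4139 in TAM. The ratio of the Mmp sum to the Timp sum was 1.29, 2.02 and 1.23 in EtOH and 1.499, 0.402 and 1.12 in TAM. The ranges overlapped, and the lowest ratio was that of TAM replicate 2, where Timp1 was highest and Mmp11 lowest. These are ratios of RNA and not of active protein. The shares of the Mmp sum, that sum and the ratios also carry the limit on the length of Mmp11 given above.

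**Figure D3:**
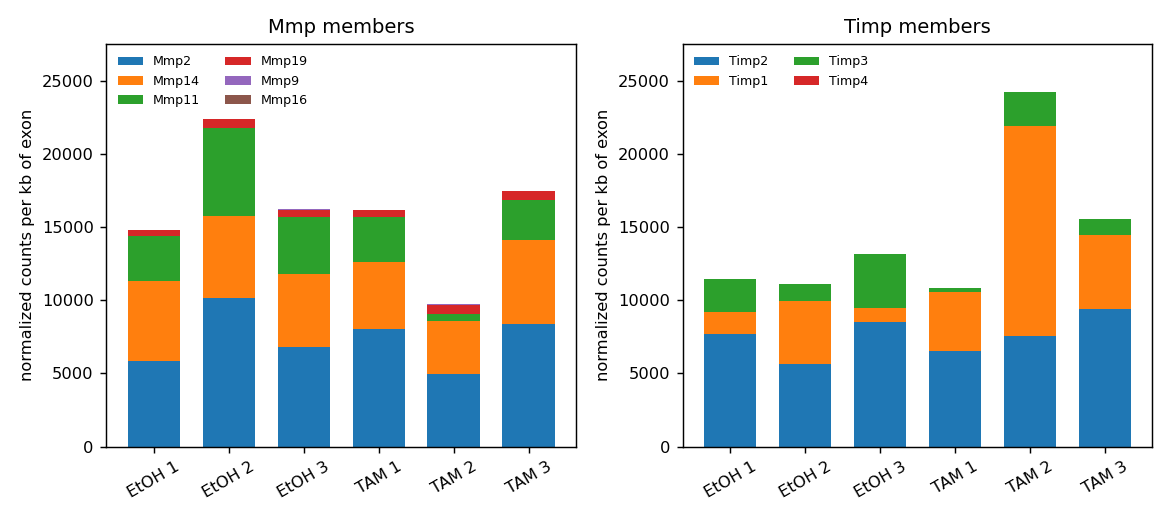
Normalized counts per kb of exon of the 6 Mmp members (left) and the 4 Timp members (right), stacked in each of the 6 libraries on the same scale from 0. Timp1 takes 59.2% of the Timp sum in TAM replicate 2, where the Mmp sum is the lowest of the 6, and Mmp9, Mmp16 and Timp4 are too low to be seen.

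The other Mmp genes of the table differed in 2 ways. Of the 10 genes of the chromosome 9 cluster, which holds collagenases and stromelysins, 5 passed the filter and all 5 had positive fitted differences, with a median of 3.59 on the log2 scale. limma called 0 of them without the replicate block and 3 with it, where 0.244% and 1.62% of all genes were called. At an unadjusted p under 0.05 without the block there were 3, against 13.4% of all genes in either direction. Mmp3 (stromelysin 1), at 63.8 to 376 normalized counts in EtOH and 1099 to 3255 in TAM, had a log2 fold change of 3.59 (SE 0.67, adjusted p = 0.103, and 0.0237 with the block). Mmp13 (a collagenase), at 0.74 to 80.1 in EtOH and 186 to 1045 in TAM, had 5.02 (SE 1.44, adjusted p = 0.221, and 0.0359 with the block). Mmp8, at 1.62 to 8.28 in EtOH and 19.8 to 137 in TAM, had 3.94 (SE 0.86, adjusted p = 0.146, and 0.0429 with the block), and passed the filter through its TAM libraries alone, so 1 of the 3 calls rests on a gene admitted by the group where it is high. Mmp8 also counts among the 5 positive differences and in their median. Mmp10, at 0 to 36.2 in EtOH and 9.30 to 145 in TAM, had 3.17 (SE 1.64, limma adjusted p = 0.464) and overlapping groups. Mmp27, at 22.0 to 78.3 in EtOH and 20.1 to 120 in TAM, had 0.37 (SE 0.76, limma adjusted p = 0.877), also with overlap.

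Of the 7 remaining Mmp genes, 5 were tested and limma called 0 without or with the replicate block, against 0.244% and 1.62% of all genes. Before adjustment 1 gene was higher and 1 gene lower at p under 0.05 in each fit. Of all 11877 genes tested, 792 were higher and 796 lower in this way without the block, and 1026 and 988 with it. Mmp17, a membrane-anchored enzyme, stood at 181, 126 and 102 normalized counts in EtOH and at 324, 444 and 225 in TAM, without overlap. Its log2 fold change was 1.26 (SE 0.33, limma adjusted p = 0.194, and 0.102 with the block). Mmp28, a secreted enzyme known from skin, stood at 258, 134 and 293 in EtOH and at 108, 103 and 98.4 in TAM, also without overlap (log2 fold change -1.06, SE 0.32, adjusted p = 0.243, and 0.177 with the block). Mmp15, also membrane-bound, had 0.77 (SE 0.54, adjusted p = 0.589) and overlapping groups. Mmp24, at 145 to 217 in EtOH and 223 to 227 in TAM, separated by a narrow margin (log2 fold change 0.37, SE 0.21, limma adjusted p = 0.526). Without overlap 2 of the 5 were thus higher and 1 was lower in TAM, against 9.19% and 11.4% of all genes tested.

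**Figure D4:**
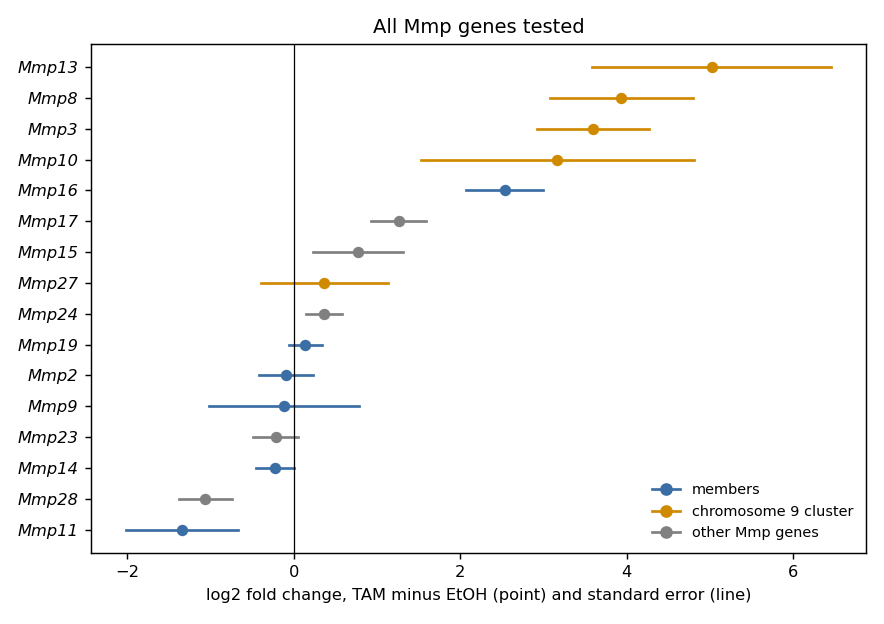
Log2 fold change, TAM minus EtOH, with its standard error from limma without the replicate block, of the 16 Mmp genes tested, ordered by size and colored by set. Mmp13, Mmp8, Mmp3 and Mmp10 of the chromosome 9 cluster lie furthest to the right, Mmp16 follows, and the other 5 members lie between -1.34 and 0.14. Mmp8 passed the filter through its TAM libraries alone, and the groups of Mmp10 overlap.

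Among 17 genes that activate, bind or clear Mmp enzymes, 16 were tested, 1 was called without the replicate block and 2 with it, all higher in TAM. Of all genes tested, 0.244% were called without the block and 1.62% with it. Lcn2, a lipocalin known to bind and stabilize Mmp9, stood at 5.94, 8.52 and 2.50 normalized counts in EtOH and at 110, 112 and 68.8 in TAM. The groups did not overlap, and its log2 fold change was 3.96 (SE 0.50, limma adjusted p = 0.0427, and 0.0237 with the block). Lcn2 was under 1 c.p.m. in all 3 EtOH libraries and passed the filter through TAM alone. The 1 call without the block and 1 of the 2 calls with it thus rest on a gene admitted by the group where it is high. Pcsk5, a proprotein convertase, stood at 104, 43.8 and 19.3 in EtOH and at 1753, 346 and 107 in TAM (log2 fold change 3.14, SE 1.03, adjusted p = 0.268, and 0.0345 with the block).

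None of 19 transcription factors known to regulate Mmp and Timp genes was called without or with the replicate block, against 0.244% and 1.62% of all genes. At an unadjusted p under 0.05 limma without the block had 1 higher and 1 lower, against 13.4% of all genes in either direction. Of the 19, 10 had positive and 9 negative fitted differences. Without overlap of the groups 1 was higher and 2 were lower in TAM, against 9.19% and 11.4% of all genes tested. Runx1 stood at 150, 366 and 76.9 normalized counts in EtOH and at 674, 531 and 365 in TAM, overlapping by a narrow margin between EtOH replicate 2 and TAM replicate 3. Its log2 fold change was 1.64 (SE 0.55, limma adjusted p = 0.271, and 0.135 with the block). Etv4, an ETS factor, and Fosl1, an AP-1 subunit, had 1.32 (SE 1.00, adjusted p = 0.623) and 1.02 (SE 1.36, adjusted p = 0.794), and both were highest in replicate 2 of each group.

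Markers of other skin cells were low, as summed normalized counts per library. The 6 keratinocyte markers summed to 66.8 to 83.4 in EtOH and 52.7 to 80.1 in TAM, with 2 tested by limma, 0 called and Krt1 at 0 in every library. Krt10 had a log2 fold change of -0.02 (adjusted p = 0.982). Trp63, at 24.9 to 25.8 in EtOH and 2.50 to 7.15 in TAM, had -2.11 (adjusted p = 0.187) and an unadjusted p under 0.05, and passed the filter through EtOH alone. Krt5, too low to be tested, went the other way, at 0 to 0.64 in EtOH and 2.96 to 13.4 in TAM, without overlap. The 5 endothelial markers summed to 92.5 to 241 in EtOH and 24.6 to 44.4 in TAM. Of these only Kdr was tested, at 68.7 to 205 in EtOH and 4.84 to 14 in TAM, and it passed the filter through EtOH alone (log2 fold change -3.71, limma adjusted p = 0.0608, or 0.0488 under the replicate block), while Pecam1 stayed at or under 11.3 normalized counts. Among the fibroblast markers, Lum and Dcn, matrix proteoglycans, had -2.38 and -2.37 (adjusted p = 0.236 and 0.163) and Thy1 had 1.36 (adjusted p = 0.295). The part of these differences in the Mmp and Timp values was not tested.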

How the data were processed

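Poly(A) RNA of 6 MSF samples, 3 per group by their labels, was sequenced. Per the submitters' processing notes and the study's methods, reads were mapped to mm9 with TopHat, counted per gene with HTSeq and compared with edgeR, whose versions are not given in the sources used here. The signal deposited by the authors is 1 table of normalized counts, a row for each gene, that are not whole numbers and whose scaling is not stated, so read depth is unknown, no counting intervals were computed, and edgeR, which was planned for whole counts, was not run. The library sums of 14952370 to 17314950 and n = 3 per group set the precision.

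Values were used as deposited. limma 3.58.1 (R 4.3.3, intensity trend) was fitted on log2(value + 1) over the 11877 genes that reached 1 c.p.m. in 3 or more libraries, with Benjamini-Hochberg adjustment over all of them and a threshold of 0.05. Fold changes are on that log2(value + 1) scale, which understates those of low genes. After subtracting group means, libraries of the same number correlated over genes at 0.241, 0.287 and 0.422, and those of different number at -0.310 to 0.037. Subtracting the means of 3 libraries makes these values depend on each other. The replicate numbers of the labels, the only source of the pairing, were taken to pair the samples, and a fit with the number as a block is given where it changes a call.

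Exon lengths and overlaps came from the mm9 GENCODE annotation, in which 22148 of the 22162 genes were found. Lengths are bases of the union of exons. Promoters are RefSeq sequences of GRCm38.p6, and protein sequences were not used here. All 10 members are named. Of every other list the text names up to 3 tested genes with the largest absolute log2 fold change and any called gene, except 1 gene that is not reported here. Genes of the table overlapping members are named too. Cdkn1b, Cd68, Mmp10, Mmp24, Mmp27, Krt5, Vwf, Tek, Cdh5 and the marker genes given at or near 0 were added after their values were seen. The members and lists were chosen with earlier results of these data known. Alternatives were the replicate block, 3 scalings, 2 pseudocounts, 2 filters, library weights, each library left out, another gene length and, chosen after seeing the data, blocked fits on 2 pairs. Python 3.11.15 with numpy 2.4.6, scipy 1.17.1, pandas 2.3.3 and matplotlib 3.10.9 was used for the rest.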

Additional observations from a re-analysis of the deposited data

How the results depend on the processing

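With the replicate block 1 member was called higher (Timp1), and with library weights, whose estimation did not fully converge, 2 were (Timp1 and Mmp16), against 0 without either. The block changed no other member's call, and no alternative called a member lower. Leaving out each library in turn called 0 members. Over 15 alternatives the log2 fold change of Timp1 ran from 1.29 to 2.45 (limma adjusted p = 0.0293 to 0.649) and that of Mmp16 from 1.76 to 2.93 (0.0341 to 0.365). With 2 pairs in the blocked fit, chosen after seeing the data, Mmp16 had adjusted p = 0.0923 without pair 1, 0.0165 without pair 2 and 0.0614 without pair 3.

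Of all genes, 20 were called higher and 9 lower. The replicate block gave 119 and 73, library weights 386 and 356, no filter on low values 12 and 5, quantile normalization 13 higher, at least 10 in every library 4 lower, and leaving out 1 library 0 to 6 higher and 0 to 9 lower. The sign turned for Mmp2 (0.018 by library size, 0.092 by quantile normalization, 0.30 with library weights, -0.26 to 0.15 leaving out 1 library), Mmp9 (-1.08 to 0.60), Timp2 (-0.061 to 0.24, both leaving out 1 library) and Mmp14 (0.041 with library weights). Scaling by library size moved the median of all genes from -0.03 to 0.08. The longest transcript as gene length gave a Timp sum of 14038 per kb in EtOH. The causes were not tested. With 3 libraries per group and unknown read depth, differences of low genes such as Mmp9 and Timp4 were not resolved.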

Other observations

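Several members lie over or inside a gene on the opposite strand, and the ratios of the pairs per library differed in how constant they were. The 3 synapsin genes each hold a Timp gene, an arrangement known from other vertebrates, with Timp1 inside Syn1, Timp3 inside Syn3 and Timp4 inside Syn2. Syn3, which is known for its part in nerve terminals, was listed at 6390, 3273 and 10851 normalized counts in EtOH and at 741, 6439 and 3046 in TAM. Its ratio to Timp3 stayed within 2.79 to 2.98, although Syn3 spanned 14.6-fold over the libraries, and the genes share 1733 exon bases, 14.1% of those of Syn3. Timp1 and Syn1, which share 0 exon bases, had ratios from 27.2 to 62.1. Syn2 was at most 2.50 normalized counts in each library and was not tested.

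Mmp19 and 1110012D08Rik, which share 789 exon bases, had ratios from 1.94 to 2.40 while each spanned about as little, 1.45 and 1.55-fold. BC100451, a gene on the same strand within Timp2 with 0 shared exon bases, stood at 32.7, 42.0 and 49.6 normalized counts in EtOH and at 74.7, 72.9 and 76.7 in TAM, without overlap (log2 fold change 0.86, SE 0.28, limma adjusted p = 0.268). Timp2 was 340 to 916 times as high. Chchd10, on the opposite strand within Mmp11 with 0 shared exon bases, was lowest in TAM replicate 2 at 38.5 normalized counts, the library in which Mmp11 was lowest too, against 84.1 to 212 in the other 5. Gm867, at the 5′ end of Mmp11, stood at 64.8, 319 and 108 in EtOH and at 26.4, 34.3 and 55.2 in TAM, without overlap (log2 fold change -1.80, SE 0.60, limma adjusted p = 0.271). Gm11067, within Mmp14, was at most 5.42, and Gm17482, over Timp4, was at 0 in all 6 libraries.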
